A study of Mus musculus with 24 samples.

Results

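The 41 genes described here encode the signalling machinery of the T cell receptor. They were taken from the counts table by gene symbol, all 41 were found among its 24421 genes, and all 41 passed the filter on low counts in every fit. By the role usually given to each protein, 24 were counted as activators, 13 as negative regulators and 4 as genes that work both ways. The T cell receptor has no enzyme of its own. When it binds a peptide on another cell, the kinase Lck phosphorylates the CD3 and zeta chains, Zap70 docks on them, and the scaffolds Lat and Lcp2 gather the enzymes that raise calcium and activate Ras, protein kinase C theta and NF-kappa-B. Phosphatases, the kinase Csk, ubiquitin ligases and diacylglycerol kinases reverse these steps. Calcium activates the phosphatase calcineurin and with it the NFAT transcription factors, the step that cyclosporine blocks.

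CD8 and CD4 T cells were isolated by FACS from marrow of female CByB6F1 mice aged 2 to 5 months. All groups, the untreated one included, came from mice with immune bone marrow failure (BMF), in which T cells attack the marrow. Mice were untreated, or were given ruxolitinib (RUX) at a low dose, which blocks the cytokine receptor kinases JAK1 and JAK2, cyclosporine (CSA), or the pair of drugs (RUX+CSA). A library was made from the cells of 2 to 3 mice of 1 group, with 3 pools in each of the 8 groups. CD8 pools are numbered 1 to 12 and CD4 pools 13 to 24, and the groups include BMF mice alone, so treated cells are compared with diseased, untreated ones. Nothing in the labels says whether pools of 1 group shared a litter or a sorting day, so p-values measure the spread between these pools.

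Libraries held 16912085 to 34550183 read pairs, and the 41 genes took 1.84% to 2.13% of each. Cd8a lay between 738 and 1150 CPM (read counts scaled to a common library size) in CD8 libraries and between 1.19 and 8.13 CPM in CD4 libraries. Cd4 lay between 1190 and 1720 CPM in CD4 and between 0.4 and 1.16 CPM in CD8 libraries, so the sort labels held in all 24. The libraries labelled CD8 CSA 6 and CD8 RUX 7 stood apart from the other pools of their groups, and each was nearer to the other group's pools. Cd6 gave 279, 316 and 209 CPM in CD8 pools 4 to 6 (CSA) and 425, 171 and 173 CPM in pools 7 to 9 (RUX), and Sit1 gave 59.8, 57.3 and 26.5 and 84.9, 32.6 and 28.9 CPM. Across the 12684 genes tested in CD8 cells, which are not independent replicates, the log2 levels of CSA 6 correlated with r = 0.9934 and 0.9935 with RUX 8 and 9 and with r = 0.9824 and 0.977 with CSA 4 and 5. Those of RUX 7 gave r = 0.9877 and 0.9879 with CSA 4 and 5 and r = 0.9737 and 0.9706 with RUX 8 and 9. CSA 6 was nearer to the mean of RUX 8 and 9 than to that of CSA 4 and 5 in 34 of the 41 genes (66.8% of all genes), and RUX 7 was nearer to CSA 4 and 5 in 29 (66.2%). Whether the labels of the 2 libraries were exchanged cannot be told from the files, and the labels are used as given. Every CD8 value under CSA or RUX, the contrasts of CSA-containing or RUX-containing CD8 pools, and the CD8 against CD4 differences under CSA or RUX depend on them. CD8 treatment results are therefore also given without these 2 libraries. Over all detected genes the lowest correlation within a group, r = 0.9795, was between untreated CD4 pools. Pool 14 had 13240 genes detected, beside 15042 and 14677 in pools 13 and 15. It gave 0.532 CPM of S100a8, beside 322 and 1610, and 64.9 CPM of C1qa, beside 17.5 and 24.6. This pool is part of every comparison with untreated CD4 cells, and was left out in turn like the other libraries. Genes of other marrow cells were found in all groups and differed with treatment, and their sums are given beside the results they move with. Fewer cells of a type and less RNA per cell cannot be told apart in such bulk samples.

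**Figure D1:**
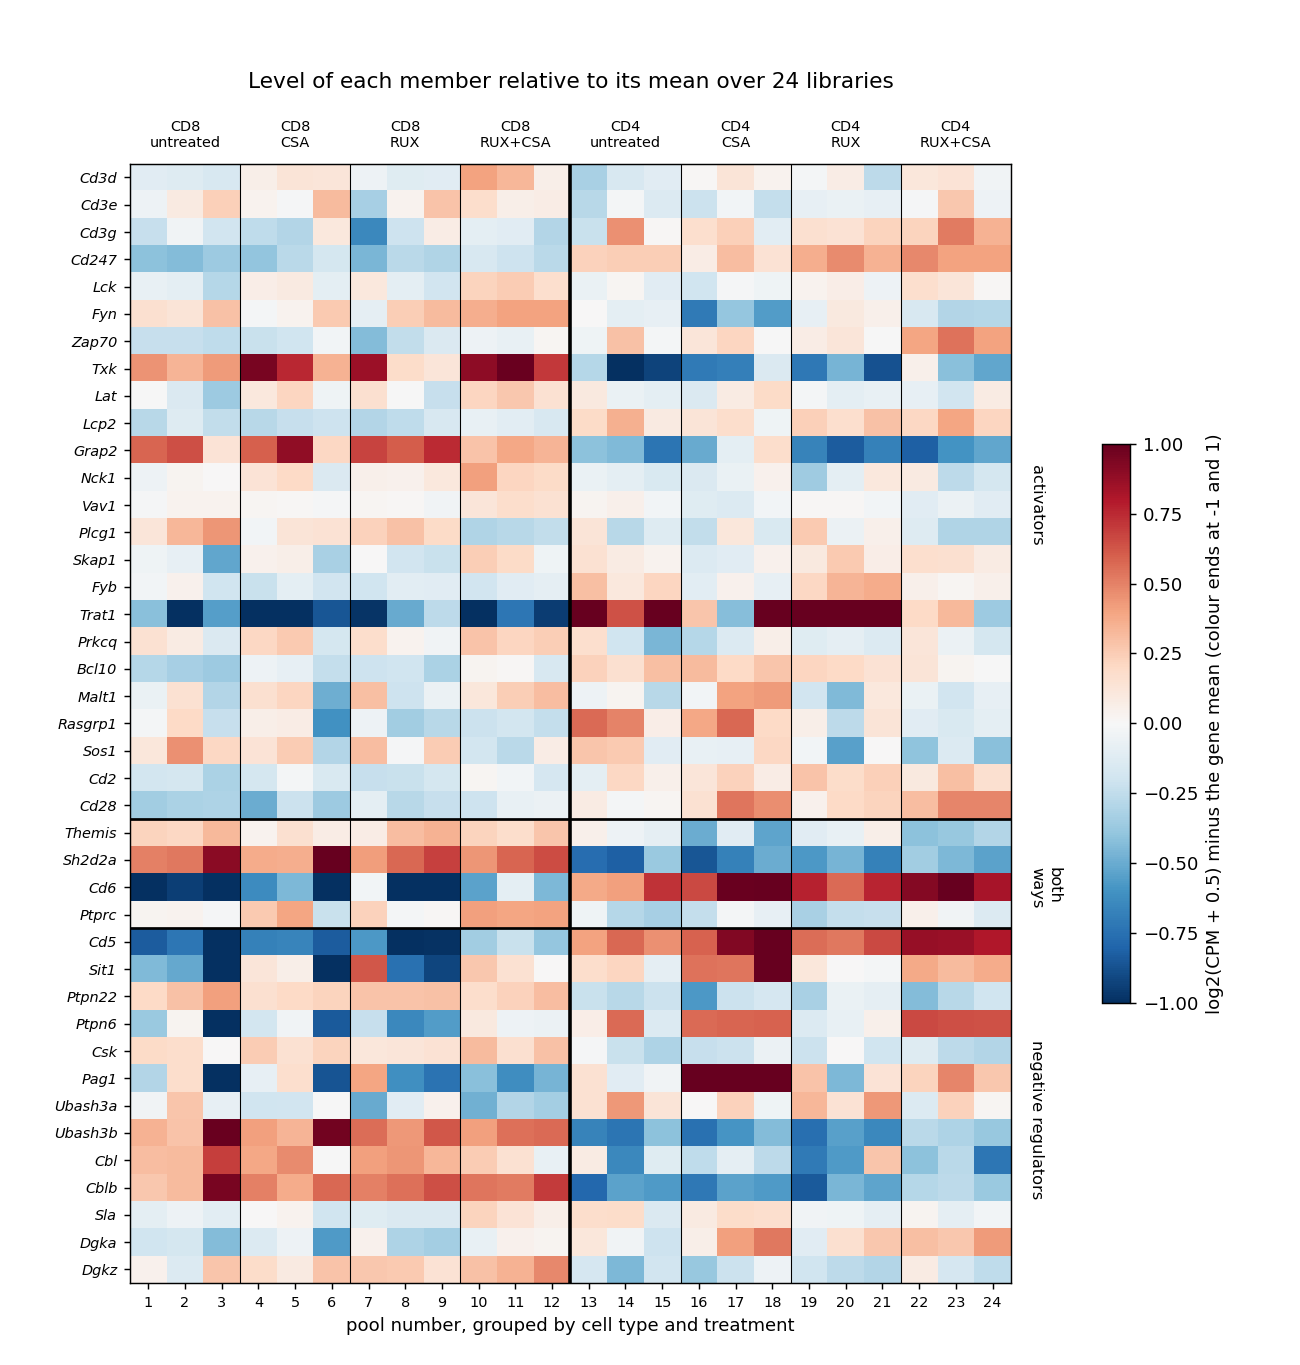
Level of the 41 genes (rows, activators above, negative regulators below) in the 24 libraries (columns, by group and pool number), as log2(CPM + 0.5) minus the gene's mean over all libraries. The sharpest boundary is between CD8 pools 1 to 12 and CD4 pools 13 to 24, for example in Trat1, Cd6, Cd5, Ubash3b and Cblb, and among CD4 pools Pag1 and Sit1 are highest in CSA pools 16 to 18.

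Per kilobase of exon, the receptor chains Cd3g and Cd3e were the most abundant of the 41. In untreated CD8 cells Cd3g stood at 1189 ± 86.9 CPM per kilobase and Cd3e at 1161 ± 118 (mean ± SD, n = 3), values that overlap within their spread. Cd2, an adhesion receptor that binds CD48, followed at 611 ± 33.2, Lck at 528 ± 41.8, Ptprc (the phosphatase CD45) at 471 ± 8.77 and Lat at 379 ± 47.5 CPM per kilobase. The other chains stood lower, Cd3d at 370.3 ± 5.97 and the zeta chain Cd247 at 64.7 ± 1.62. The level of Cd247 is uncertain in both cell types. Of its exon length 63.38% overlaps the antisense gene Pou2f1, and the counting did not use strand. At the other end lay Cbl, a ubiquitin ligase, at 6.43 ± 1.04, Sos1, an activator of Ras, at 5.25 ± 0.658, Trat1 at 4.83 ± 1.17 and Pag1 at 2.9 ± 1.21 CPM per kilobase. Untreated CD4 cells also had Cd3g, at 1423 ± 347, and Cd3e, at 985 ± 87, at the top, with Cd3d at 355 ± 27 and Cd247 at 101 ± 0.494. Their lowest were Pag1 at 3.62 ± 0.351, Cbl at 4.07 ± 1.01 and Sos1 at 4.85 ± 0.722 CPM per kilobase, whereas Trat1 stood at 32.4 ± 20.2. Levels of the 41 genes and of other pathway genes are CPM of each library scaled by its TMM factor. Levels of cell type markers, those above included, are CPM of all counted read pairs without that factor. Gene spans in parentheses are on mm10.

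CD8 and CD4 cells differed in more of these genes than the treatments did. Without treatment 11 of the 41 were higher and 10 lower in CD8 cells, against 17.2% of all 13476 genes tested (7.2% higher and 10% lower). Negative regulators inside the cell such as Cblb, Ubash3b and Ptpn22 were higher in CD8 cells, and the surface receptors Cd5, Cd6, Cd28 and Cd2 were higher in CD4 cells. Of the 13 negative regulators 6 were higher in CD8 cells and 1 was lower. Of the 24 activators 3 were higher and 8 lower. The median log2 fold change was -0.16 over the negative regulators and -0.12 over the activators, beside 0.0078 over all genes. For the negative regulators the median and the count of calls thus had opposite signs.

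The ubiquitin ligase Cblb, which sets the need for costimulation (chromosome 16, 52031549 to 52208046), stood at 352, 364 and 563 CPM in CD8 and at 169, 201 and 197 CPM in CD4 pools without treatment. The lowest CD8 pool was above the highest CD4 pool (log2 1.17, SE 0.14, adjusted p = 4.6e-06). In this comparison the groups did not overlap, in either direction, in 35% of all 13476 genes tested. Ubash3b, a phosphatase that acts on Zap70 (chromosome 9, 41013641 to 41157494), gave 287, 275 and 448 CPM in CD8 and 142, 135 and 169.7 CPM in CD4 pools, again without overlap (log2 1.18, SE 0.16, adjusted p = 3.3e-05). In both genes CD8 pool 3 was the highest of its group. Its relative Ubash3a, with weaker catalytic activity, was not called, at 238, 296 and 230.1 CPM in CD8 and 270.5, 329 and 266 CPM in CD4 pools (adjusted p = 0.38).

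Ptpn22, a phosphatase that works with Csk on Lck (chromosome 3, 103859795 to 103912252), stood at 738, 785 and 853 CPM in CD8 and 550.5, 528 and 554 CPM in CD4 pools (log2 0.54, SE 0.10, adjusted p = 0.000429). Csk itself, which phosphorylates the inhibitory site of Lck, was also higher (log2 0.30, SE 0.087, adjusted p = 0.0183). Dgkz, a kinase that removes diacylglycerol (chromosome 2, 91932822 to 91963563), gave 622, 548 and 731 CPM in CD8 and 538, 441 and 528 CPM in CD4 pools (log2 0.34, SE 0.11, adjusted p = 0.0415). The call for Csk was lost without any 1 of 4 of the 6 libraries (adjusted p = 0.0835 to 0.106), and that for Dgkz likewise (0.0615 to 0.261). Cbl passed as well (log2 0.66, adjusted p = 0.0425) and lost its call without 5 of the 6 libraries. Dgka, the other diacylglycerol kinase of T cells, overlapped between the cell types, with 360.5, 366 and 308 CPM in CD8 and 449, 405 and 359 CPM in CD4 pools (adjusted p = 0.277).

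Without treatment, the only negative regulator called lower in CD8 cells was Cd5 (chromosome 19, 10718143 to 10738974). Cd5 is a surface receptor that tracks the strength of receptor signalling. It stood at 135, 146 and 113 CPM in CD8 and 319, 360.1 and 332 CPM in CD4 pools, so that every CD4 pool was more than the highest CD8 pool (log2 -1.36, SE 0.13, adjusted p = 3.05e-07). Cd6, its close relative and neighbour on chromosome 19 (chromosome 19, 10789339 to 10830058), went the same way, with 190.3, 224 and 172 CPM in CD8 and 564, 574 and 715 CPM in CD4 pools (log2 -1.66, SE 0.27, adjusted p = 0.000302). Trat1, an adaptor that associates with the receptor complex (chromosome 16, 48734690 to 48771956), gave 3.95, 2.41 and 3.55 CPM in CD8 and 36.4, 8.76 and 21.3 CPM in CD4 pools (log2 -2.74, SE 0.44, adjusted p = 0.000148). The 3 CD4 pools of Trat1 spread widely but all lay above the CD8 pools.

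Among the activators, the 2 strongest differences in favour of CD8 cells were in Txk and Grap2. Txk, a Tec family kinase that activates phospholipase C (chromosome 5, 72695978 to 72752777), stood at 89.3, 82.9 and 88.1 CPM in CD8 and 53.6, 25.8 and 34.2 CPM in CD4 pools (log2 1.19, SE 0.25, adjusted p = 0.00205). Grap2, the adaptor that joins Lat to Lcp2 (chromosome 15, 80572597 to 80652854), gave 93.5, 97.8 and 68.6 CPM in CD8 and 46.9, 45.7 and 37.4 CPM in CD4 pools (log2 1.00, SE 0.17, adjusted p = 0.000226). Sh2d2a, an Lck-binding adaptor counted as working both ways (chromosome 3, 87846755 to 87855722), stood at 1095, 1113 and 1444 CPM in CD8 and 456, 438 and 599 CPM in CD4 pools (log2 1.29, SE 0.16, adjusted p = 8.2e-06). In all 3 genes the groups did not overlap, as was so in 35% of all genes tested. Themis, a regulator of signal strength, was called at log2 0.28 (adjusted p = 0.0477), a call lost without any 1 of 5 libraries. Plcg1, the phospholipase that makes the calcium and diacylglycerol signals, was called at log2 0.38 although its groups overlapped.

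Several activators were lower in CD8 cells by smaller amounts. Zap70 stood at 334, 334 and 328 CPM in CD8 and 378, 479.7 and 385 CPM in CD4 pools (log2 -0.32, SE 0.093, adjusted p = 0.0204). The costimulatory receptor Cd28 gave 353, 360.3 and 361 CPM in CD8 and 473, 442 and 455 CPM in CD4 pools (log2 -0.35, SE 0.10, adjusted p = 0.0135). Lcp2, Bcl10 (which carries the signal to NF-kappa-B), Fyb (which acts on integrins) and Cd2 were also lower, with log2 values of -0.43, -0.56, -0.27 and -0.28. The zeta chain gene Cd247 was lower as well (log2 -0.64, adjusted p = 5.06e-06), but 63.38% of its exon length overlaps the antisense gene Pou2f1, and the counting did not use strand, so reads of the pair cannot be told apart. Macrophage markers, of which all 18 are in the table, summed to 321 to 430 CPM in untreated CD8 and 840 to 1890 CPM in untreated CD4 pools, and 14 of the 17 tested were lower in CD8 cells. Lcp2 and Fyb are also made by myeloid cells, and the part of such cells in these differences was not tested.

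Cd3e, Lck and Lat missed the threshold. Cd3e stood at 1502, 1657 and 1841 CPM in CD8 and 1287, 1537 and 1420 CPM in CD4 pools, Lck at 1279, 1258 and 1103 and 1285, 1361 and 1243 CPM, and Lat at 523, 474 and 406 and 558, 499 and 488 CPM. Their adjusted p values were 0.211, 0.477 and 0.416, with log2 fold changes of 0.24, -0.10 and -0.14 (SE 0.13, 0.086 and 0.11). Left out 1 at a time, the untreated libraries gave between 14 and 20 called genes, the lowest number without CD8 pool 3 or CD4 pool 14. With no filter on low counts 17 were called, without Themis, Fyb, Cd2 and Dgkz (adjusted p = 0.0724, 0.0529, 0.0512 and 0.052). Fyb and Cd2 lost their calls in 3, Plcg1 in 4 and Zap70 in 2 of these 6 fits (Zap70 at adjusted p = 0.055 without CD8 pool 3 and 0.132 without CD4 pool 14).

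The same differences between the cell types were measured separately in the CSA, RUX and RUX+CSA pools, which share no library with the untreated ones. They gave 24, 22 and 25 called genes, against 26.3%, 17.9% and 27.8% of all genes. In all 4 treatments 17 of the 41 (41.5%) were called in 1 direction, beside 7.5% of all genes. Txk, Grap2, Themis, Sh2d2a, Ptpn22, Csk, Ubash3b, Cblb and Dgkz were higher in CD8 cells each time. Cd247, Zap70, Lcp2, Trat1, Cd2, Cd28, Cd6 and Cd5 were lower each time. Not all of these calls were secure. Under RUX, Csk lost its call in 5, Themis in 4, Zap70 in 2 and Cd28 in 1 of the 6 fits without 1 library, and without CSA 6 and RUX 7 Csk and Zap70 missed the threshold (adjusted p = 0.0687 and 0.0733). Under CSA, Zap70 and Cd2 lost theirs in 4 fits each and Dgkz in 1, and Cd2 missed the threshold without those 2 libraries (adjusted p = 0.0735). Under RUX+CSA, Trat1 lost its call in 4 fits and Cd2 in 2. Other negative regulators were lower in CD8 cells under some treatments only. These were Ptpn6 and Pag1 under CSA (log2 -0.89 and -1.38) and RUX+CSA (-0.65 and -0.84). Ubash3a was lower under RUX and RUX+CSA (-0.49 and -0.42), and Sit1 and Dgka under CSA (-0.98 and -0.58). Ptpn6 and Pag1 under RUX+CSA lost their calls in 6 fits each, Sit1 in 5, and Ubash3a in 3 and 2. Cbl was higher in untreated and RUX cells. No gene of the 41 was called in both directions, and 9 were called in none of the 4. Cblb had log2 values of 1.17, 1.09, 1.16 and 0.89 in untreated, CSA, RUX and RUX+CSA cells, and Cd5 had -1.36, -1.62, -1.44 and -1.16.

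**Figure D2:**
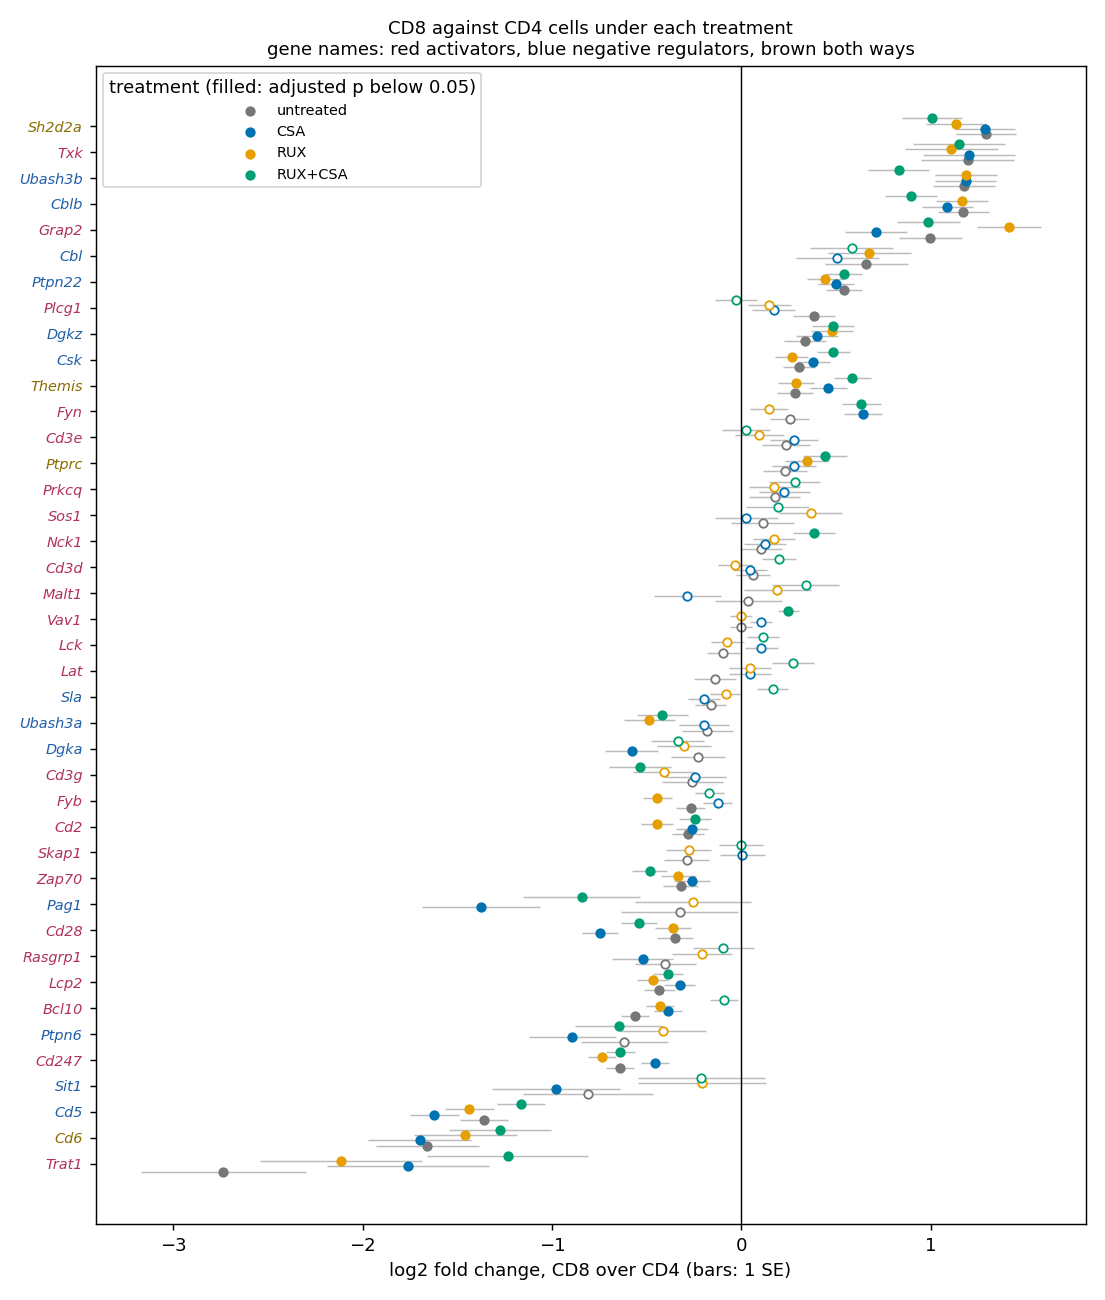
Log2 fold change of CD8 over CD4 cells for each of the 41 genes under the 4 treatments, with bars of 1 SE and filled points for an adjusted p below 0.05. Red names are activators, blue names negative regulators and brown names work both ways. Sh2d2a, Txk, Ubash3b, Cblb and Grap2 lie to the right and Trat1, Cd6 and Cd5 to the left under every treatment.

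CSA in CD4 cells moved genes of both roles. Pag1, the membrane anchor of Csk, and Sit1, a transmembrane adaptor that dampens signalling, rose with CSA, and the kinase Fyn fell. Against untreated CD4 cells 3 of the 41 were called, beside 1.48% of 13175 genes (1% higher and 0.478% lower), and these were the 3. With other-cell markers as a covariate, described below, 2 were called, and Fyn (adjusted p = 0.135) and Sit1 (0.0712) missed the threshold. Taking CSA-containing pools (CSA and RUX+CSA) against pools without CSA, in 1 contrast of the 4-group fit, 10 of the 41 were called, beside 7.16% of all genes, and 17 had an unadjusted p below 0.05, beside 22.6%. Of the 13 negative regulators 4 rose and none fell (Pag1, Sit1, Ptpn6 and Cd5), beside 3.76% of all genes that rose. Of the 24 activators 1 rose (Cd28) and 3 fell (Fyn, Fyb and Trat1), beside 3.39% of all genes that fell. Among the 4 genes that work both ways Cd6 rose and Themis fell. The median log2 fold change was 0.16 over the negative regulators, 0.023 over the activators and -0.0062 over all genes tested.

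Pag1 (chromosome 3, 9687482 to 9833679) stood at 33.1, 27.5 and 29.1 CPM in untreated and 60.5, 66.5 and 74.5 CPM in CSA pools of CD4 cells. All 3 CSA pools lay far above all untreated ones (log2 1.17, SE 0.17, adjusted p = 0.00401). In 20.4% of all genes tested CSA and untreated CD4 pools did not overlap in either direction. RUX pools gave 36.4, 21.7 and 32.9 CPM and RUX+CSA pools 34.8, 42 and 36 CPM, so the RUX+CSA pools lay between, only a little above the untreated ones (log2 0.33 against untreated, adjusted p = 0.347). The difference of RUX+CSA from CSA alone was log2 -0.84 (SE 0.17), with an adjusted p of 0.0534. Over all CSA-containing pools the log2 difference was 0.74 (SE 0.12, adjusted p = 0.00291).

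Sit1 (chromosome 4, 43482083 to 43483709) stood at 62, 63.9 and 51.8 CPM without treatment, 59.6, 55.2 and 54.2 after RUX, 80.5, 80 and 123 after CSA and 71.6, 68.8 and 71.1 after both drugs. Every CSA-containing pool was above the 6 other CD4 pools (log2 0.50, SE 0.10, adjusted p = 0.0133), and pool 18 was the highest. How many of all genes were separated in this way was not counted, here or for Fyn, Fyb and Themis below. Against untreated cells CSA gave log2 0.67 (adjusted p = 0.0363), which became log2 0.44 and adjusted p = 0.147 without pool 18. Leaving out untreated pool 13 or 15 also ended that call (adjusted p = 0.0632 and 0.0974).

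Ptpn6, a tyrosine phosphatase of immune receptors in most blood cells (chromosome 6, 124720707 to 124738709), stood at 481, 679 and 416 CPM in untreated and 417, 436 and 474 CPM in RUX pools. CSA pools gave 679, 687 and 689 CPM and RUX+CSA pools 723, 717 and 711 CPM. The 6 CSA-containing pools were tightly grouped, untreated pool 14 was level with the lowest of them, and the other 5 pools were well below (log2 0.54, SE 0.10, adjusted p = 0.00489). RUX+CSA against RUX was called for this gene alone of the 41, beside 0.782% of all genes, 0.577% higher and 0.205% lower (log2 0.70, SE 0.14, adjusted p = 0.0262), a call lost without any 1 of the 6 libraries (adjusted p = 0.0608 to 0.155).

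Cd5 stood at 319, 360.1 and 332 CPM without treatment, 357, 349 and 381 after RUX, 363, 459 and 531 after CSA and 442, 440.5 and 421 after both drugs in CD4 cells. RUX pool 21 was above CSA pool 16, so the CSA-containing pools overlapped with the others (log2 0.34, SE 0.081, adjusted p = 0.0229). Cd6 gave 564, 574 and 715 CPM without treatment, 738, 639.9 and 733 after RUX, 683, 859 and 1069 after CSA and 817, 883 and 764 after both drugs (log2 0.36, SE 0.10, adjusted p = 0.0449). This was the least secure of the 10 calls and was lost in 10 of 12 fits that left out 1 library. Cd28 (chromosome 1, 60746388 to 60773359) stood at 473, 442 and 455 CPM without treatment, 461, 514 and 524 after RUX, 497, 649 and 619.9 after CSA and 554, 629.6 and 629 after both drugs, with its lowest CSA-containing pool inside the RUX range (log2 0.32, SE 0.074, adjusted p = 0.0202).

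Fyn, the Src family kinase that acts beside Lck (chromosome 10, 39369799 to 39565374), stood at 972, 908 and 914 CPM in untreated and 594, 740.4 and 658 CPM in CSA pools of CD4 cells. Every CSA pool was below every untreated pool (log2 -0.49, SE 0.094, adjusted p = 0.0196), a call lost without CSA pool 16 or 18 (adjusted p = 0.061 and 0.0916). RUX pools gave 915, 1036 and 1002 CPM and RUX+CSA pools 867, 791 and 796 CPM, so that all 6 CSA-containing pools were below the 6 others (log2 -0.38, SE 0.067, adjusted p = 0.0048). Lck was not called, with 1285, 1361 and 1243 CPM without treatment, 1174, 1332 and 1304 after CSA and 1508, 1464 and 1353 after both drugs (log2 0.027 over CSA-containing pools, SE 0.059, adjusted p = 0.833).

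Trat1 showed the largest fold, on low and scattered values. CD4 pools without treatment gave 36.4, 8.76 and 21.3 CPM and RUX pools 13.7, 18.8 and 13.8 CPM, while CSA pools gave 6.7, 3.91 and 11.4 and RUX+CSA pools 6.32, 6.93 and 4.12 CPM (log2 -1.50, SE 0.34, adjusted p = 0.0229). CSA pool 18 was above untreated pool 14, so the groups overlapped. Fyb (chromosome 15, 6579847 to 6665608) lay between 499 and 556 CPM in the CSA-containing pools and between 577 and 696 CPM in the others (log2 -0.26, SE 0.06, adjusted p = 0.02). Themis (chromosome 10, 28668360 to 28883818) stood at 407, 378 and 368 CPM without treatment, 363, 373 and 409.6 after RUX, 278, 363 and 272 after CSA and 296, 302 and 319.8 after both drugs, with the CSA-containing pools below the others, narrowly so for CSA pool 17 beside RUX pool 19 (log2 -0.33, SE 0.076, adjusted p = 0.0203).

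**Figure D3:**
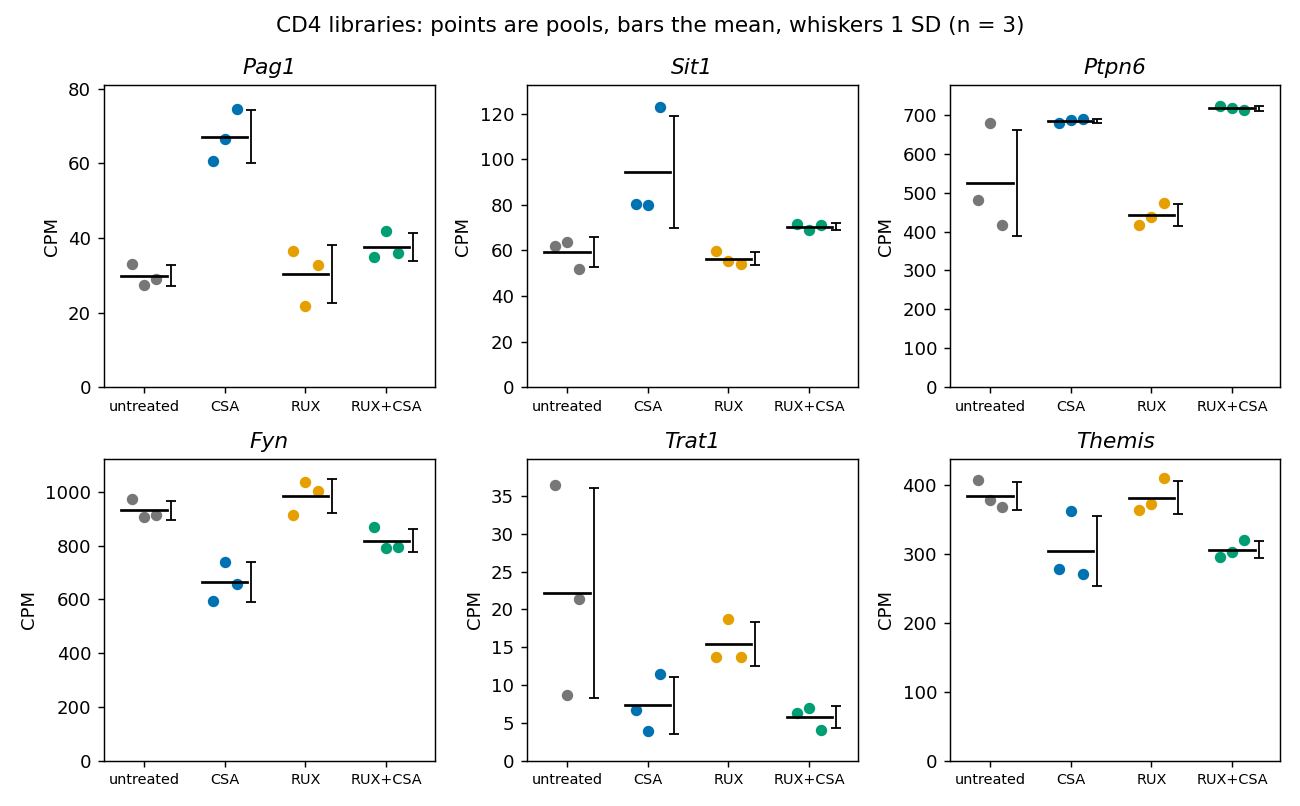
CPM of 6 genes in the 12 CD4 pools by treatment, with the mean as a bar and 1 SD as a whisker (n = 3 pools). Pag1, Sit1 and Ptpn6 are higher and Fyn and Themis lower in the CSA and RUX+CSA pools, Pag1 mostly in CSA alone, and Trat1 shows wide spread in untreated pools from 8.76 to 36.4 CPM.

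The calls for Pag1, Sit1, Ptpn6 and Fyn over CSA-containing pools were kept in all 12 fits that left out 1 library, and the number of called members lay between 5 and 10. Cd28, Cd5 and Trat1 lost theirs in 5 fits each, at adjusted p up to 0.0656, and Themis and Fyb in 2 each. With the mean level of 64 other-cell markers (neutrophil, erythroid, B cell and macrophage) as a covariate, Sit1 and Ptpn6 alone were called. That covariate was itself 54% between groups in the CD4 libraries. Erythroid markers (15 of 16 in the table) summed to 55.2 to 141 CPM in untreated, 83.4 to 119 in RUX, 340 to 552 in CSA and 198 to 561 in RUX+CSA CD4 pools, with 3 of 11 tested higher with CSA and none lower. The globin genes Hba-a1, Hbb-bs and Hbb-bt were at 0 in every CD4 library. Markers of NK cells (10 of 10 in the table) summed to 143 to 244, 160 to 192, 244 to 380 and 281 to 344 CPM in the same order, with Klra4 and Klra8 at 0, and 2 of 8 tested were higher. Neutrophil markers (18 of 19) ranged from 102 to 9580 CPM in untreated, 4220 to 8310 in RUX, 3710 to 18400 in CSA and 8880 to 10700 in RUX+CSA pools. Macrophage markers summed to 840 to 1890, 724 to 1380, 1110 to 2960 and 1300 to 1660 CPM, and 3 of 17 tested were lower with CSA. B cell markers (13 of 15 in the table) summed to 20.4 to 21.5, 18.7 to 22, 18.7 to 27.9 and 39.8 to 133 CPM. Of the 11 tested, 3 were higher with CSA, and 4 were higher in RUX+CSA than in RUX pools, the comparison in which Ptpn6 was called. Of the 8 NK markers tested 2 were higher in RUX+CSA than in RUX pools as well. Basophil and mast cell markers (8 of 8) summed to 0.342 to 71.3, 67.4 to 128, 24.5 to 138 and 115 to 190 CPM, and 2 of 7 tested were higher with CSA, as was 1 of 7 stem and progenitor markers. Ptpn6 and Fyb are made by several of these cell types, and their part in the result was not tested.

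The promoters of 5 of these genes are printed to show the sequence next to the start of transcription, since NFAT proteins, which calcineurin activates, bind the core GGAAA. Each is the 250 bases before the RefSeq start in build GRCm38.p6, on the strand of the gene, and capitals mark GGAAA or its complement TTTCC. They are chr4:43483710-43483959 (Sit1, minus strand), chr6:124738710-124738959 (Ptpn6, minus), chr19:10738975-10739224 (Cd5, minus), chr10:39369549-39369798 (Fyn, plus) and chr16:48772063-48772312 (Trat1, minus).
Sit1: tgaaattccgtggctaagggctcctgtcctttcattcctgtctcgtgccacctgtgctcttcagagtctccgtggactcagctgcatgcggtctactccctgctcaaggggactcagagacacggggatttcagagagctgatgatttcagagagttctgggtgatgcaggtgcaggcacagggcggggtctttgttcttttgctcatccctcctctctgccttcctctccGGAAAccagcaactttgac
Ptpn6: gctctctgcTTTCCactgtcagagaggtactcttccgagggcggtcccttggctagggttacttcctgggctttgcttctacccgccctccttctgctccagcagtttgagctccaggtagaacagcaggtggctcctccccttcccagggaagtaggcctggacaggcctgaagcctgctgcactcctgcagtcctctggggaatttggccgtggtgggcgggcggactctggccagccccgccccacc
Cd5: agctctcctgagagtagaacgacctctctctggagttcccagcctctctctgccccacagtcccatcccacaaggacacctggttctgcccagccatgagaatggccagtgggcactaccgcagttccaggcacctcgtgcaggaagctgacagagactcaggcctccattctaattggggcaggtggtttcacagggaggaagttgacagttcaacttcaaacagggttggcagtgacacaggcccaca
Fyn: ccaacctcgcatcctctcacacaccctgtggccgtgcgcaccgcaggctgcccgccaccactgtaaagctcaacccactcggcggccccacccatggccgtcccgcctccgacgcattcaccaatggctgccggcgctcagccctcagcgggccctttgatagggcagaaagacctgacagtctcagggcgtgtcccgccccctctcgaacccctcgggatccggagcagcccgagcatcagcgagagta
Trat1: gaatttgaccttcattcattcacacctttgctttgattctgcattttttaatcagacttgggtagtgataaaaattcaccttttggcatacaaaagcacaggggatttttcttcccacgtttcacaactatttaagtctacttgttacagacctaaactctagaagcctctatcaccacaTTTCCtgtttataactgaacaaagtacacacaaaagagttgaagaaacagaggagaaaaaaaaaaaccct
Sit1, Ptpn6 and Trat1 each hold 1 such match, beginning at positions -19, -241 and -70 from the start, and Cd5 and Fyn hold none. Letters like these are common: GGAAA on either strand was found in 55.57% of 32851 mouse promoter windows of this length and in 34 of the 47 windows of the 33 members that the table of promoters held (26 of the 33 had it in at least 1 window). The AP-1 sequence TGANTCA was found in 6.75% of all windows and in 0 of the 47. A match describes the letters only. Among the 5 printed, genes that rose (Sit1 and Ptpn6) and a gene that fell (Trat1) held it alike. Themis and Fyb also fell, and their promoters are not printed. For Trat1 the RefSeq start lies upstream of the span used for counting (48734690 to 48771956).

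Activators and negative regulators were also set against each other within each library, as the mean log2 level of the 24 minus that of the 13. This is a description with no test, since the genes were grouped with earlier results known. In CD4 cells the difference was 0.469 to 0.536 in untreated and 0.422 to 0.559 in RUX pools. It was 0.186 to 0.285 in CSA and 0.302 to 0.331 in RUX+CSA pools, so CSA-containing pools did not overlap with the others. The activators had a mean log2 level of 8.08 in untreated and 8.04 in CSA pools, and the negative regulators one of 7.58 and 7.81, so the gap narrowed on the side of the negative regulators. That mean includes Pag1, Sit1, Ptpn6 and Cd5, named above, so it is not a separate result. Csk (144 and 145 CPM), Cbl (20.7 and 20.6), Cblb (189 and 192) and Ubash3b (149 and 150) were level in untreated and CSA pools. Ptpn22 (544 and 519) and Ubash3a (289 and 256 CPM) were lower on average with CSA. In CD8 cells the ranges were 0.315 to 0.38 in untreated, 0.258 to 0.4 in CSA, 0.173 to 0.44 in RUX and 0.283 to 0.341 in RUX+CSA pools, and they overlapped. RUX pool 7 had the lowest value, 0.173. The SD within groups, pooled over the 8 groups, was 0.0682.

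**Figure D4:**
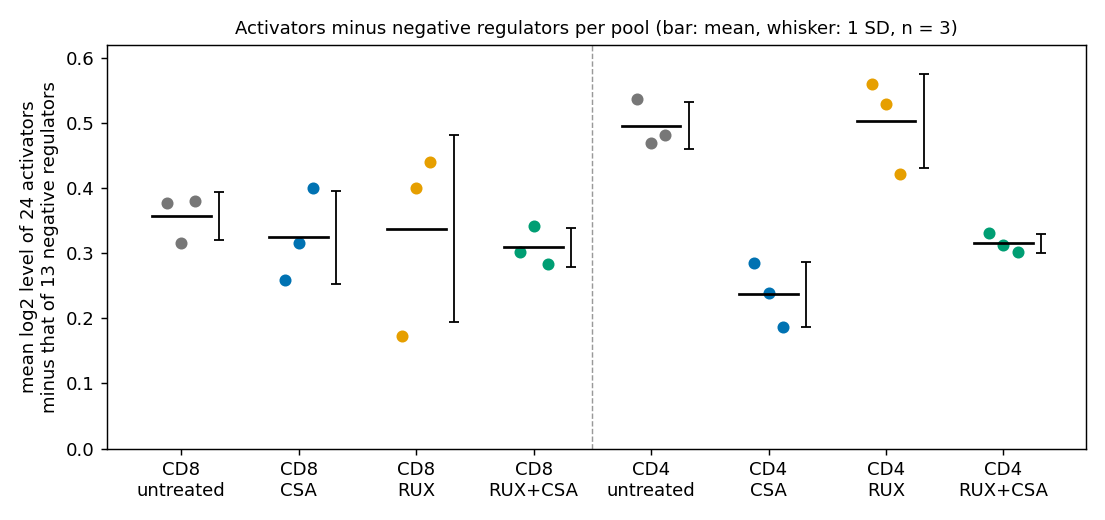
Mean log2 level of the 24 activators minus that of the 13 negative regulators in each of the 24 pools, by cell type and treatment, with the group mean as a bar and 1 SD as a whisker (n = 3 pools). CD4 CSA pools lie at 0.186 to 0.285 and CD4 RUX+CSA pools at 0.302 to 0.331, below all CD4 untreated and RUX pools, and the 4 CD8 groups overlap.

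The series set out to compare T cells of BMF mice with and without the combination. In CD8 cells the receptor chain Cd3d, Lck, Bcl10 and the negative regulator Cd5 rose, and Plcg1 and the negative regulator Ubash3a fell. These were 6 of the 41, beside 15.7% of 12684 genes (7.94% higher and 7.73% lower), so the members were called about as often as other genes. At an unadjusted p below 0.05 there were 18 members, beside 33.7% of all genes. Of the 24 activators 3 rose and 1 fell, and of the 13 negative regulators 1 rose and 1 fell. Median log2 fold changes were 0.18 over the activators, 0.12 over the negative regulators and -0.024 over all genes.

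Plcg1 (chromosome 2, 160731310 to 160775760) stood at 160, 185 and 200.5 CPM in untreated and 119.5, 121 and 124 CPM in RUX+CSA pools of CD8 cells. The treated pools were within a narrow range below all untreated ones (log2 -0.59, SE 0.086, adjusted p = 0.00427). CSA pools gave 144, 161 and 163 CPM and RUX pools 173, 180.1 and 168 CPM, between or among the untreated values. This was the one call of the 6 that held without each of the 6 libraries in turn (adjusted p = 0.00789 to 0.0257).

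Cd3d (chromosome 9, 44981786 to 44987052) stood at 499, 494 and 484 CPM in untreated and 715, 681 and 562 CPM in RUX+CSA pools, and CSA alone gave 564, 592 and 589.6 CPM (log2 0.40, SE 0.091, adjusted p = 0.0177 for the combination). Cd3e was not called and stood at 1502, 1657 and 1841 CPM in untreated and 1757, 1622 and 1640 CPM in RUX+CSA pools (log2 -0.004, SE 0.14, adjusted p = 0.989). Lck (chromosome 4, 129548344 to 129573641) gave 1279, 1258 and 1103 CPM in untreated and 1569, 1600 and 1509 CPM in RUX+CSA pools, all above the untreated range (log2 0.35, SE 0.10, adjusted p = 0.0384). Bcl10 (chromosome 3, 145924262 to 145934364) gave 66.3, 64 and 62.6 CPM in untreated and 82.3, 81.2 and 72.1 CPM in RUX+CSA pools (log2 0.28, SE 0.084, adjusted p = 0.0437). Its lowest treated pool stood only a little above the untreated ones.

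Of the negative regulators, Cd5 stood at 135, 146 and 113 CPM in untreated and 190, 207 and 185 CPM in RUX+CSA pools of CD8 cells (log2 0.55, SE 0.13, adjusted p = 0.0219). Ubash3a (chromosome 17, 31208066 to 31242403) stood at 238, 296 and 230.1 CPM in untreated and 174, 198 and 192 CPM in RUX+CSA pools, without overlap (log2 -0.44, SE 0.13, adjusted p = 0.0451). Lck and Ubash3a lost their calls without any 1 of the 6 libraries (adjusted p = 0.0529 to 0.122 and 0.0511 to 0.17). Bcl10 lost its call in 5, and Cd5 and Cd3d in 3 each, of these fits, so that 1 to 4 genes were called.

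Of the 41, 26 had a log2 value above 0 and 15 one below 0. Of the genes that missed the threshold, Zap70 gave 334, 334 and 328 CPM in untreated and 377, 371 and 395 CPM in RUX+CSA pools (adjusted p = 0.127). Lat gave 523, 474 and 406 and 607, 631 and 581 CPM (adjusted p = 0.0625), and Cd28 353, 360.3 and 361 and 388, 426 and 429.7 CPM (adjusted p = 0.135). Dgkz gave 622, 548 and 731 and 741, 766 and 844 CPM (adjusted p = 0.0682), and Dgka 360.5, 366 and 308 and 394, 427 and 422 CPM (adjusted p = 0.245). Each of these 5 had all treated pools above the untreated ones, and in 43.4% of all genes the groups did not overlap in either direction. By contrast Cblb, with 423, 418 and 474 CPM in RUX+CSA pools, Ubash3b, with 300.2, 331 and 334, and Ptpn22, with 726, 752 and 795, lay within the range of the untreated pools given above or overlapped with it.

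**Figure D5:**
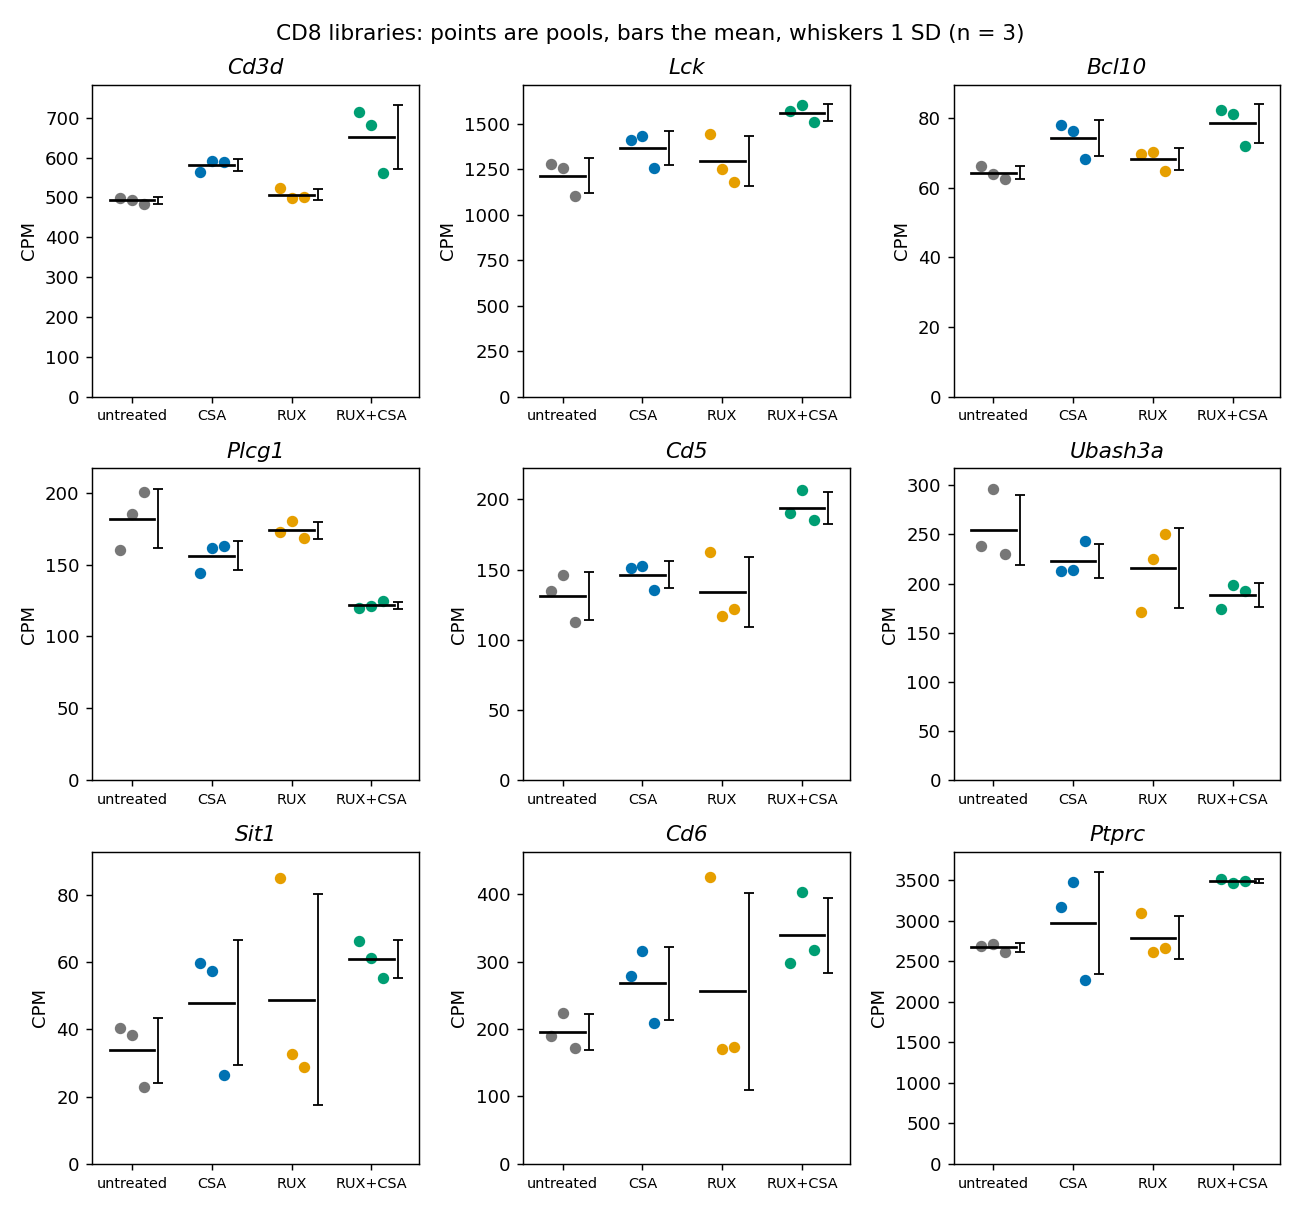
CPM of 9 genes in the 12 CD8 pools by treatment, with the mean as a bar and 1 SD as a whisker (n = 3 pools). Cd3d, Lck, Bcl10 and Cd5 are higher and Plcg1 and Ubash3a lower in RUX+CSA than in untreated pools, and in Sit1 and Cd6 the RUX group is split by pool 7 (84.9 and 425 CPM).

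CSA or RUX alone moved none of the 41 past the threshold in CD8 cells by edgeR or DESeq2, and 0% of all genes passed in edgeR. At an unadjusted p below 0.05 there were 3 members for CSA and 0 for RUX, beside 9.72% and 5.87% of all genes. RUX+CSA against CSA gave 0 called members by edgeR, beside 0.0788% of all genes, 0.0315% higher and 0.0473% lower (5 at an unadjusted p below 0.05, beside 12.6% of all genes, and 1 by DESeq2, which called 266 genes in all). Against RUX the edgeR count was also 0, beside 0% (10 at an unadjusted p below 0.05, beside 17.3%, and 5 by DESeq2 of 505 genes in all). A contrast of CSA-containing with other CD8 pools, added after the data were seen, called 2 of 41, Cd3d (log2 0.30, SE 0.064, adjusted p = 0.0439) and Plcg1 (log2 -0.37, SE 0.06, adjusted p = 0.0245), beside 2.36% of all genes. Plcg1 lost this call in 6 and Cd3d in 9 of 12 fits without 1 library (0 to 8 members called, 0 without untreated 2, CSA 4, RUX 8, RUX 9, RUX+CSA 10 or RUX+CSA 11, 4 without CSA 6 and 8 without RUX 7). The matching contrast for RUX called none in edgeR, beside 0.56% of all genes, with 5 at an unadjusted p below 0.05, beside 15.7%, and 1 in DESeq2 of 573 genes in all.

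Without CSA 6 and RUX 7 the CD8 comparisons called many more genes, members and others alike. RUX+CSA against untreated then had 17 called members, 14 higher and 3 lower, beside 30.4% of all genes. Those added were Zap70, Txk, Lat, Nck1, Sos1, Cd6, Ptprc, Sit1, Sla, Dgka and Dgkz, of which Sos1 alone was lower (log2 -0.40, adjusted p = 0.0307). Cd6 had log2 0.79 (adjusted p = 0.00158) and Ptprc 0.38 (adjusted p = 0.00202). CSA against untreated had 4 called members (Txk, Cd6, Ptprc and Sit1, all higher), beside 4.81% of all genes. RUX+CSA against RUX had 10, 9 of them higher, beside 11.6%. CSA-containing against other pools had 18, 15 of them higher, beside 21.9%, and RUX against untreated still had none.

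Most sets of markers of other marrow cells also summed higher in the CD8 RUX+CSA pools, though not every marker of a set rose. Neutrophil markers summed to 13.3 to 1570 CPM in untreated, 885 to 3560 in CSA, 1870 to 3230 in RUX and 4380 to 5740 in RUX+CSA pools, and 5 of 18 tested were higher with the combination. Erythroid markers went from 51.7 to 97.6 CPM in untreated to 145 to 351 CPM in RUX+CSA pools (8 of 11 tested higher), with the 4 globin genes at 0 throughout. B cell markers (13 of 15 in the table) went from 8.01 to 17.3 CPM to 31.2 to 74.8 CPM (5 of 10 higher). Ms4a1, Pax5 and Fcrla were at 0 in untreated and each was detected in at least 1 of the RUX+CSA pools. Macrophage markers went from 321 to 430 CPM to 850 to 1050 CPM (2 of 17 higher, 3 lower). Most of that rise was in Lyz2, with 51, 5.79 and 163 CPM in untreated and 703, 542 and 556 CPM in RUX+CSA pools. C1qb went from 4.72, 11.5 and 4.34 to 1.1, 1.6 and 1.79 CPM, and Vcam1 from 8.71, 16.2 and 8.82 to 3.65, 4.9 and 4.17 CPM. Basophil and mast cell markers went from 1.66 to 11.9 CPM to 67.3 to 102 CPM (6 of 7 higher), and Ms4a2 was at 0 in untreated pools. NK cell markers went from 450 to 542 CPM to 837 to 920 CPM (3 of 7 higher, Klra4 and Klra8 at 0 in both groups). The largest part of that rise was in Klrk1, from 225, 307 and 180 to 476, 474 and 409 CPM. Klrb1c did not rise, with 1.16, 5.74 and 0.358 CPM in untreated and 0.913, 1.16 and 0.637 CPM in RUX+CSA pools. Stem and progenitor markers went from 8.16 to 28 CPM to 31.7 to 34.8 CPM (3 of 5 higher). The covariate, the mean of the 64 neutrophil, erythroid, B cell and macrophage markers, was 77.6% between groups in CD8 libraries. With it 0 members and 0 genes in all were called. Basophil, NK and stem and progenitor markers were not part of it. B cells can also carry Cd5, and their part in these results was not tested.

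RUX alone left the 41 genes in CD4 cells without a call. Against untreated cells 0 of 41 and 0% of all genes passed in edgeR, 1 member had an unadjusted p below 0.05, beside 4.16% of all genes, and DESeq2 called 0. RUX-containing against other CD4 pools called 0 members, beside 0.25% of all genes (13 had an unadjusted p below 0.05, beside 9.82%, and DESeq2 called 2 of 210 genes in all). Rasgrp1, the Ras activator that diacylglycerol recruits, had the smallest adjusted p (log2 -0.46, SE 0.10, adjusted p = 0.0784). RUX+CSA against untreated CD4 cells also called 0 members by edgeR, beside 1.77% of all genes, 1.02% higher and 0.744% lower (14 at an unadjusted p below 0.05, beside 16.9%, and 6 by DESeq2 of 883 genes in all). Zap70 stood at 378, 479.7 and 385 CPM in untreated and 512, 570.5 and 517 CPM in RUX+CSA pools, all treated pools above all untreated ones (log2 0.36, adjusted p = 0.0818). These groups did not overlap, in either direction, in 21.8% of all genes tested. RUX+CSA against CSA in CD4 cells called 0 by edgeR, beside 0.281% of all genes (14 at an unadjusted p below 0.05, beside 9.98%, and 2 by DESeq2 of 201 genes in all).

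Whether a treatment acted differently on the 2 cell types was tested directly. The effect of RUX+CSA did not differ past the threshold for any of the 41 in edgeR, beside 0.0223% of all genes, with 8 members at an unadjusted p below 0.05, beside 14.1%, and 2 called by DESeq2 of 208 genes in all. The effect of CSA-containing treatment, a contrast added after the data were seen, gave 0 as well, beside 0.0816% of all genes, with 11 at an unadjusted p below 0.05, beside 14.7%, and 2 by DESeq2 of 238 genes in all. Fyn had the smallest p in the latter, with log2 0.059 in CD8 and -0.38 in CD4 cells (difference 0.44, SE 0.10, adjusted p = 0.0785). For Pag1 the log2 values were -0.086 and 0.74 (difference -0.82, SE 0.31, adjusted p = 0.231). Cd5 had 0.34 in CD8 and 0.34 in CD4 cells (difference 0.0047, SE 0.13).

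Other genes of the pathway, from lists of 53 activating and 38 restraining genes in the table, were read beside the 41. CSA-containing treatment in CD4 cells raised 8 of the 38 restraining genes and lowered none, and raised 4 and lowered 2 of the 53 activating genes, beside 3.76% of all genes higher and 3.39% lower. The feedback inhibitor of Ras signalling Spry2 stood at 6.32 ± 3.08 CPM without treatment, 18.6 ± 5.36 after CSA, 5.45 ± 2.1 after RUX and 33.1 ± 2.4 after both (mean ± SD, n = 3; log2 2.08, SE 0.26, adjusted p = 0.000468). Sh2b3, an adaptor that restrains cytokine receptors, had 21.8 ± 2.25, 38.5 ± 7.8, 23.8 ± 3.58 and 45.8 ± 1.35 CPM in the same order (log2 0.88, SE 0.11, adjusted p = 0.000549). Dusp5, a phosphatase of ERK, had 89.1 ± 16.4, 146 ± 20.9, 77.4 ± 12.5 and 143 ± 14.1 CPM (log2 0.80, SE 0.11, adjusted p = 0.000749), and Dok2, an adaptor that restrains Ras, rose by a log2 value of 0.36. Sh2d1a, the adaptor SAP of the SLAM receptors, was lower in CSA-containing than in other CD4 pools (log2 -0.62, adjusted p = 0.000694). It was higher in RUX-containing than in other CD4 pools (log2 0.47, adjusted p = 0.0307). Its CPM were 173 ± 23.5 without treatment, 221 ± 27.1 after RUX, 104 ± 5.37 after CSA and 156 ± 13.8 after both. Tnfrsf9, the costimulatory receptor 4-1BB, fell (log2 -0.60, adjusted p = 0.00575), and Nck2 and Rac2, which link the receptor to actin, rose by 0.41 and 0.23. The other-cell markers given above are those of the same pools.

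In CD8 cells RUX+CSA raised 8 and lowered none of the 53 activating genes, and raised 6 and lowered 2 of the 38 restraining ones, beside 7.94% of all genes higher and 7.73% lower. The SLAM receptor Slamf6 went from 137 ± 8.69 CPM in untreated to 199 ± 11.6 CPM in RUX+CSA pools (log2 0.52, SE 0.11, adjusted p = 0.0134). Map2k2, a kinase of the ERK cascade, rose by 0.30, and Coro1a and Cdc42, regulators of actin, by 0.40 and 0.40 on the log2 scale. Laptm5, a lysosomal protein that lowers surface receptor levels, had a mean of 1718 ± 42 CPM without and 2530 ± 53.2 CPM with treatment (log2 0.55, SE 0.10, adjusted p = 0.00737), and the inhibitory receptor Btla rose by 0.82. Map4k1, a kinase that marks Lcp2 for removal, fell (log2 -0.33, adjusted p = 0.0137), as did the phosphatase Ptpn11 (log2 -0.60, adjusted p = 0.0143). Coro1a and Laptm5 are made by most white blood cells, and the part of the other-cell markers given above was not tested.

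Between untreated CD8 and CD4 cells 6 of the 53 activating genes were higher and 8 lower, and 6 of the 38 restraining ones were higher and 8 lower, beside 7.2% of all genes higher and 10% lower. Cd27, a costimulatory receptor, and Tec, a relative of Txk, were higher in CD8 cells (log2 0.95 and 1.55), whereas Icos, a relative of Cd28, was lower (log2 -1.60, adjusted p = 2.52e-08). The inhibitory receptor Cd160 was higher (log2 2.99, adjusted p = 1.14e-09), and the phosphatase Ptpn7 and the ubiquitin ligase Rnf128 were lower (log2 -0.58 and -1.53).

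The remaining genes of the 41 were called by edgeR in no comparison of treatments with all libraries. Without CSA 6 and RUX 7, RUX+CSA against untreated CD8 cells called Nck1, Sos1 and Sla (adjusted p = 0.0203, 0.0307 and 0.0309), and CSA-containing CD8 pools called Skap1, Prkcq and Malt1 (adjusted p = 0.0426, 0.0252 and 0.0262). The CD3 chain Cd3g lay between 863 and 1931 CPM over the 24 libraries, Vav1, which activates Rac, between 226 and 282, and Nck1, an adaptor to actin, between 66 and 113. Skap1, a partner of Fyb, lay between 199 and 342 CPM, Prkcq, the protein kinase C theta, between 241 and 403, and Malt1, the protease that works with Bcl10, between 69.9 and 132. Sos1 lay between 26.4 and 53.4 CPM, Cbl between 14.2 and 38.8 and Sla, an adaptor that lowers surface zeta chain, between 456 and 612. Of these, Cd3g, Nck1 and Vav1 were called between CD8 and CD4 cells under RUX+CSA (log2 -0.53, 0.39 and 0.25), and Cbl in untreated and RUX cells.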

How the data were processed

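RNA was measured in 24 pools of sorted T cells. The deposited values are raw read counts per gene, made with featureCounts 2.0.3 without use of strand, per the file headers, and aligned with STAR to mm10, per the submitters' processing notes. Libraries were made with the SMART-Seq mRNA LP kit, per the labels' protocols. All columns matched a sample (0 were left unmapped).

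Counts were scaled by TMM factors and tested in edgeR 4.0.16 (quasi-likelihood F test, filterByExpr, robust) in R 4.3.3. One fit per cell type (4 groups) served the treatments, and one fit of all 8 groups served the cell types. Adjusted p is Benjamini-Hochberg over all genes tested, with a threshold of 0.05. The sides of the receptor pathway were compared as mean log2(CPM + 0.5). Scripts were tested on simulated data.

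Totals of 16.9 to 34.6 M put the level that 3 counts represent at 0.0868 to 0.177 CPM, which covers counting error only. Alternatives were DESeq2 1.42.0, RLE factors, no filter on low counts, and leaving out single libraries. Chosen after seeing the data were the contrasts of CSA-containing and RUX-containing CD8 pools, the difference of CSA effects between cell types, and some fits without CD8 CSA 6 and RUX 7 or with the other-cell covariate. The members and gene lists were chosen with earlier results of these data known.

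Values in every library were printed for up to 8 called members per comparison, by size of log2 fold change, and for Cd3e, Lck, Zap70, Lat, Cd28, Cd5, Ptpn22, Ubash3a, Ubash3b, Cblb, Dgka and Dgkz. Of other pathway genes, up to 4 called ones per comparison and list were named. Promoters came from RefSeq (GRCm38.p6), which matched 33 of the 41 genes.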

Additional observations from a re-analysis of the deposited data

Results flagged for a closer look

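For 3 genes every RUX+CSA pool lay above every untreated pool in CD8 cells and below every untreated pool in CD4 cells. The log2 change of Fyn was 0.1841 in CD8 and -0.186 in CD4 cells, that of Vav1 0.1251 and -0.1137, and that of Bcl10 0.2783 and -0.1804. Among all 13476 genes tested over both cell types, 150 (1.11%) were separated in opposite directions, 53 of them in this one. In 43.4% of genes in CD8 and 21.8% in CD4 cells the 2 groups did not overlap. The difference itself did not pass the threshold in edgeR for any of them. It was 0.38 for Fyn (SE 0.14, adjusted p = 0.265), 0.25 for Vav1 (SE 0.08, adjusted p = 0.199) and 0.47 for Bcl10 (SE 0.11, adjusted p = 0.0923).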

How the results depend on the processing

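No called result changed sign under any alternative run. Counts of called members moved as follows, with counts over all genes in parentheses, and the cause was not tested. DESeq2 gave 12 (2851) in CD8 RUX+CSA against untreated, 1 (266) against CSA and 5 (505) against RUX, and 5 (1326) and 1 (573) for CSA-containing and RUX-containing CD8 pools. The edgeR counts over all genes were 1988, 10, 0, 299 and 71. In CD4 cells DESeq2 gave 8 (655) for CSA and 6 (883) for RUX+CSA against untreated, 2 (201) and 4 (552) for RUX+CSA against CSA and RUX, and 2 (210) for RUX-containing pools, where edgeR called 195, 233, 37, 103 and 33 genes. For the differences between cell types it gave 2 (208) for RUX+CSA and 2 (238) for CSA, where edgeR called 3 and 11 genes. With no filter on low counts, CD4 RUX+CSA against untreated, against CSA, and RUX-containing CD4 pools each had 1. That setting also left 4 in CD8 RUX+CSA (Ubash3a at adjusted p = 0.0515, Bcl10 at 0.0512), 17 in untreated CD8 against CD4 cells, and Trat1 at 0.0522 in CSA-containing CD4 pools. RLE factors left 5 in CD8 RUX+CSA (Ubash3a at 0.0526) and 20 in untreated CD8 against CD4 cells (Themis at 0.0562). Without CD8 CSA 6 and RUX 7 the CD8 counts were 4 (616) for CSA and 17 (3893) for RUX+CSA against untreated, 1 (110) against CSA, 10 (1481) against RUX, 18 (2802) for CSA-containing pools and 1 (114) for the difference of the RUX+CSA effect. With the other-cell covariate they were 0 (0) for CD8 RUX+CSA and 0 (0) for CSA-containing CD8 pools, 1 (50) for CD4 RUX+CSA and 2 (114) for CD4 CSA against untreated, where Fyn (0.135) and Sit1 (0.0712) missed the threshold, and 2 (298) for CSA-containing CD4 pools.

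Leaving out 1 library gave 1 to 4 in CD8 RUX+CSA against untreated, 0 to 4 against RUX (4 without RUX 7), 0 to 8 for CSA-containing CD8 pools, and 14 to 20 for untreated CD8 against CD4 cells. In CD4 cells it gave 1 to 5 for CSA (1 without CSA 18, 5 without untreated 14 or CSA 16), 0 to 3 for RUX+CSA (3 without untreated 14), 0 for RUX+CSA against RUX, 5 to 10 for CSA-containing pools (5 without RUX+CSA 23) and 0 to 1 for RUX-containing pools. No paired analysis was possible because the groups share no replicate numbers. All of these genes passed the filter on low counts, and whether depth limited their comparisons was not tested.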
